A study of Homo sapiens with 6 samples.

Results

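The inhibitor of apoptosis (IAP) genes XIAP, BIRC2, BIRC3 and BIRC6, the FLIP gene CFLAR, the death-complex genes FADD and RIPK1, and the mitochondrial genes DIABLO, HTRA2 and CYCS were examined in MV4;11 cells. These 10 genes were chosen by symbol, with earlier results of these data known, and all 10 were found among the 21857 genes of the tables. MV4;11, from which every library came, is an established line of human acute myeloid leukemia. It has FLT3-ITD, an activating duplication within the receptor kinase gene, and its second driver is the fusion MLL-AF4. RNA sequencing covered 3 libraries of cells given 10 µg/ml FKA for 48 h and 3 control libraries without FKA. FKA is flavokawain A, a chalcone of the kava plant. Whether the controls received the solvent of FKA is not stated in the labels. A batch field in the labels places 1 FKA and 1 control library in each of 3 batches.

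Death receptors recruit the adaptor FADD, which gathers caspases. FLIP, a caspase-like protein without protease activity, joins the same complex and restrains them. RIPK1 is the kinase of the TNF receptor complex that can lead to survival signaling, apoptosis or necroptosis, and the ubiquitin ligases encoded by BIRC2 and BIRC3 decorate it with ubiquitin. XIAP blocks active caspases directly, and BIRC6 is a very large ubiquitin-conjugating IAP. When mitochondria become leaky, cytochrome c (CYCS) starts the apoptosome, and DIABLO (Smac) and the protease HTRA2 (Omi) bind IAPs and relieve caspases from them.

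Gene count totals ran from 29971171 to 33183376 in the FKA libraries and from 33759185 to 36362421 in the control libraries. All 11 myeloid leukemia markers had counts, and their summed level was 2116 to 2216 CPM in FKA libraries and 2060 to 2186 CPM in control libraries. Single markers moved both ways under that sum, with 2 of 11 higher and 3 lower. At an edgeR adjusted p below 0.05, 45.5% of these markers passed, beside 59.8% of all tested genes. MPO, the granule enzyme myeloperoxidase, stood at 1.06 ± 0.928 CPM with FKA and 44.5 ± 21.1 CPM in controls (SD, n = 3 each; log2 fold change -5.36, edgeR adjusted p = 6.94e-05), and FUT4 (-1.10) and HOXA9 (-0.52) fell too. ITGAM, the integrin chain CD11b, rose by 1.51 and MEIS1 by 0.58. Their part in the results below was not tested. CPM is the count of a gene relative to the TMM-scaled size of its library. Reads of 7 fibroblast genes were uneven: their summed level was 1.12, 52.6 and 48.8 CPM in FKA replicates 1 to 3 and 10.7, 8.89 and 0.744 CPM in control replicates 1 to 3. The part of these reads in the results was not tested. A fit without FKA replicates 2 and 3 is given below for the 9 tested genes, and for the pathway lists and their named genes where it changed a call or a count by over 1.5 times. In the T cell list 2 of 5 genes had counts, in the B cell list 3 of 4, in the megakaryocyte list 1 of 3, in the endothelial list 3 of 3 and in the epithelial list 5 of 5. Of the 4 erythroid genes listed, 0 could be analysed here. Summed levels stayed at or below 0.777 CPM for the T cell, B cell, megakaryocyte and endothelial lists, and were 12.9 to 18.8 CPM in FKA and 19.2 to 21.8 CPM in control libraries for the epithelial list.

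Promoter windows of 5 of the genes are shown because they hold the contrast of the results: CFLAR, RIPK1 and BIRC2 were higher with FKA, BIRC3 was nearly silent, and CYCS was lower. Each runs from 250 bases before to 50 bases after an annotated start, 5′ to 3′ on the gene's strand, from RefSeq on GRCh38.p14. Capitals mark matches to 7 motifs searched on both strands. For genes with several annotated starts, a window that holds a match was taken, and which start was used in these cells was not measured.
CFLAR promoter, chr2:201118466-201118765 (+): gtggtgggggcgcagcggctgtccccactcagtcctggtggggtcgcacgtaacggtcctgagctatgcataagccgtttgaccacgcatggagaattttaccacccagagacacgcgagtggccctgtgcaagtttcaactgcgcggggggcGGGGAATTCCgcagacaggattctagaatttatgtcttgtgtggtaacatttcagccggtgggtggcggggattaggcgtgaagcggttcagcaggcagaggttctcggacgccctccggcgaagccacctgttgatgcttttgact
RIPK1 promoter, chr6:3068128-3068427 (+): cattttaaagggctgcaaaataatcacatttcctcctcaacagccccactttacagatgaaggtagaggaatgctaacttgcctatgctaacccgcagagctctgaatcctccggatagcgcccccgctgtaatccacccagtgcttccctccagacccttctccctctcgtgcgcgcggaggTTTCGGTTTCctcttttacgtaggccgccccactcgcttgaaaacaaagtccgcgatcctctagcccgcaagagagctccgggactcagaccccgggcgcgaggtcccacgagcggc
BIRC2 promoter, chr11:102346964-102347263 (+): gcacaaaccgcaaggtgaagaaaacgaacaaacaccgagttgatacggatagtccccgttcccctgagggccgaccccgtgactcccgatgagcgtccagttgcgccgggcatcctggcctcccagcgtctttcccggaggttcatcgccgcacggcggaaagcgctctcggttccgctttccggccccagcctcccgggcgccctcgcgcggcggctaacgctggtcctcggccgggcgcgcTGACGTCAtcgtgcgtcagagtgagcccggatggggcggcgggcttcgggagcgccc
BIRC3 promoter, chr11:102317234-102317533 (+): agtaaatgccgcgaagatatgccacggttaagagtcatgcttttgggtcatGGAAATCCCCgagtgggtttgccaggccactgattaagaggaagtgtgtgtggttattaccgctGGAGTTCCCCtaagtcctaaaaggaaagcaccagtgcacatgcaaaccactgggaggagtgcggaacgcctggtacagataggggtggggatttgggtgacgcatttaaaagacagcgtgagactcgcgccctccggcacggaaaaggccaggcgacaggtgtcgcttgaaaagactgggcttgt
CYCS promoter, chr7:25125211-25125510 (-): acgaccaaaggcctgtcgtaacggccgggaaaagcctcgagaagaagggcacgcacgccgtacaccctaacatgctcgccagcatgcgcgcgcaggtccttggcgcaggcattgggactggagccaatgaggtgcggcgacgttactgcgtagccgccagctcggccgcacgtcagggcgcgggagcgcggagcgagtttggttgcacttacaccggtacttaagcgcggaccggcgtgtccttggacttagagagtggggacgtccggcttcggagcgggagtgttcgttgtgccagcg

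The CFLAR window holds 1 match to the kappaB consensus, the binding sequence of NF-kappaB, from -97 to -88 relative to the start base, and the BIRC3 window holds 2. CFLAR has 4 windows, and the 1 printed was picked for its match. Of the 23 windows of the 10 genes 3 held the motif, the third belonging to BIRC6, which was not called. Of all 35116 promoter windows, 11.3% held it. In RIPK1 the capitals mark the ISRE core, searched as GAAA, any 2 bases and GAAA. Interferon regulatory factors bind it, and 3.57% of all windows held it. In BIRC2 they mark the CRE sequence TGACGTCA, bound by CREB and ATF factors and found in 1.85% of windows. The CYCS window held none of the 7 motifs, which besides these were the NRF1 site, searched as GCGC, any base and TGCGC (5.78% of windows), the E-box CACGTG (7.26%), the AP-1 site TGANTCA (7.71%) and the FOXO site TGTTTAC (3.42%). Windows not printed held an AP-1 site in CFLAR and FADD, an NRF1 site in FADD and an E-box in DIABLO. None of the matches in these 5 windows overlapped another motif of the set. A match describes letters only and shows neither binding nor a cause.

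Of the 10 genes, 9 had enough reads to be tested, and 6 of them differed between FKA and control libraries: CFLAR, RIPK1 and BIRC2 rose, and CYCS, DIABLO and FADD fell. XIAP, BIRC6 and HTRA2 did not pass the test, and BIRC3 was too rare to test. The test was edgeR's quasi-likelihood test with Benjamini-Hochberg adjustment over all 13531 tested genes and a threshold of 0.05. Across all tested genes 59.8% passed it, 29.3% higher and 30.5% lower, so 6 of 9 is close to the background. The median log2 fold change of the 9 genes was -0.06, against 0.01 over all tested genes. Nothing in the labels says that the libraries of a group came from separate cultures, so these p-values measure the spread between libraries, which may be technical. In bulk RNA, fewer cells of a kind and less RNA per cell cannot be told apart.

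**Figure D1:**
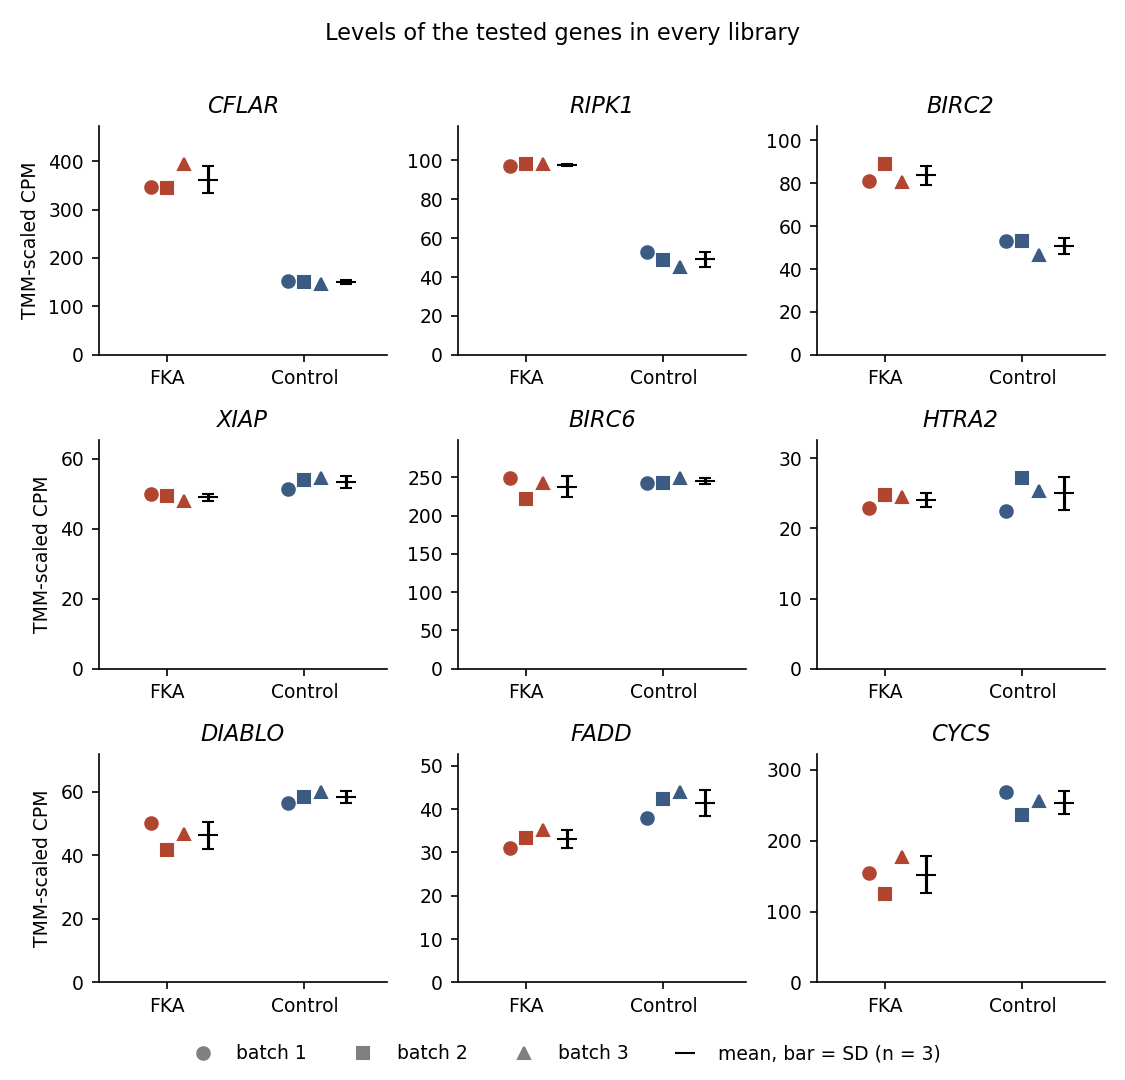
TMM-scaled CPM of the 9 tested genes in every library, FKA on the left and control on the right of each panel, with the batch as the symbol and mean ± SD (n = 3) beside the points. The groups lie apart for CFLAR, RIPK1, BIRC2, CYCS, DIABLO and FADD, lie close together without overlap for XIAP, and overlap for BIRC6 and HTRA2. Over all tested genes, 67.3% had groups without overlap.

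At the receptor complex, the inhibitor and the kinase went up while the adaptor went slightly down. CFLAR stood at 346, 345 and 394 CPM in FKA libraries and at 153, 151 and 147 CPM in control libraries. Every FKA library held more than the highest control library. CFLAR had a log2 fold change of 1.26 (SE 0.0916, edgeR adjusted p = 1.18e-05), a 2.40-fold rise with a 95% interval of 2.08 to 2.77. It was the largest change of the 9 genes, and 80.5% of all tested genes had a smaller one in absolute size. The differences within batches 1, 2 and 3 were 1.17, 1.19 and 1.42. GENCODE release 29 lists 25 transcripts of CFLAR, 18 of them protein-coding, and counts per gene do not tell the long from the short forms of FLIP. The antisense gene CFLAR-AS1, which overlaps it, had 2, 2 and 8 counts in FKA libraries and 0 in each control library, far below the 11042 to 13689 counts of CFLAR with FKA.

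RIPK1 was at 96.9, 98.1 and 98.0 CPM with FKA and at 53.0, 48.9 and 45.2 CPM in controls. The FKA libraries were almost identical in this gene (coefficient of variation 0.641%) and all lay above the controls. Its log2 fold change was 0.99 (SE 0.0878, edgeR adjusted p = 3.11e-05), or 1.99-fold with a 95% interval of 1.74 to 2.29. Within batches 1 to 3 the difference was 0.87, 1.00 and 1.11.

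FADD had 31.0, 33.3 and 35.2 CPM in FKA libraries against 38.0, 42.2 and 44.0 CPM in control libraries. The groups did not overlap, but the gap between the nearest libraries was small. The log2 fold change was -0.32 (SE 0.102, edgeR adjusted p = 0.0231), with batch values of -0.30, -0.34 and -0.32. FADD passed the test under 7 of 17 other settings. The adjusted p was 0.22 with library totals as the only scaling (log2 fold change -0.16). Leaving out control replicate 2 gave 0.0557, control replicate 3 gave 0.0779, FKA replicate 1 gave 0.0875 and FKA replicate 2 gave 0.0587.

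Of the 3 IAP genes of the set that could be tested, BIRC2 rose, while XIAP and BIRC6 did not pass the test. BIRC2, which encodes cIAP1, was at 81.2, 88.9 and 80.7 CPM in FKA libraries and at 52.8, 53.0 and 46.4 CPM in control libraries. All FKA libraries were above all controls. Its log2 fold change was 0.72 (SE 0.0925, edgeR adjusted p = 0.000215), a 1.65-fold rise with a 95% interval of 1.42 to 1.90, and the batch values were 0.62, 0.75 and 0.80.

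BIRC3, the cIAP2 gene that lies beside BIRC2 on chromosome 11 and is known as a target of NF-kappaB, was nearly silent. It had 1, 1 and 1 counts in FKA libraries and 2, 1 and 5 counts in control libraries. Summed over the groups, 3 counts stood against 8, a ratio of 0.381 with an exact 95% interval of 0.0651 to 1.59 that covers counting error only. A difference in BIRC3 was thus not detectable at this depth (edgeR adjusted p = 0.393 without the filter on low counts).

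XIAP, the direct caspase inhibitor, was at 49.8, 49.3 and 47.9 CPM with FKA and at 51.4, 54.0 and 54.5 CPM in controls. These values did not overlap, as was true of 67.3% of all tested genes, yet the difference did not pass the test. Its log2 fold change was -0.12 (95% interval -0.31 to 0.07, edgeR adjusted p = 0.228), and it was 0.036 with library totals, where the median of all genes shifts by 0.16. Deposited FPKM, which carry that total-count scaling, ran from 5.71 to 6.00 in FKA libraries and from 5.40 to 6.05 in controls.

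BIRC6 stood at 249, 222 and 242 CPM with FKA and at 243, 243 and 249 CPM in control libraries, with overlapping groups. BIRC6 had a log2 fold change of -0.04 (95% interval -0.24 to 0.15, edgeR adjusted p = 0.674), and 0.11 with library totals. The interval leaves room for a change of up to 0.849-fold or 1.11-fold. BIRC5 (survivin), an IAP of the mitotic machinery outside the 10 genes, had 1.96, 2.63 and 1.58 CPM with FKA and 22.5, 72.4 and 67.9 CPM in controls. It fell (log2 fold change -4.73, SE 0.453, edgeR adjusted p = 4.8e-05). The neuronal IAP gene NAIP, which has near-identical copies in the genome, was not called (-0.24, edgeR adjusted p = 0.391).

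**Figure D2:**
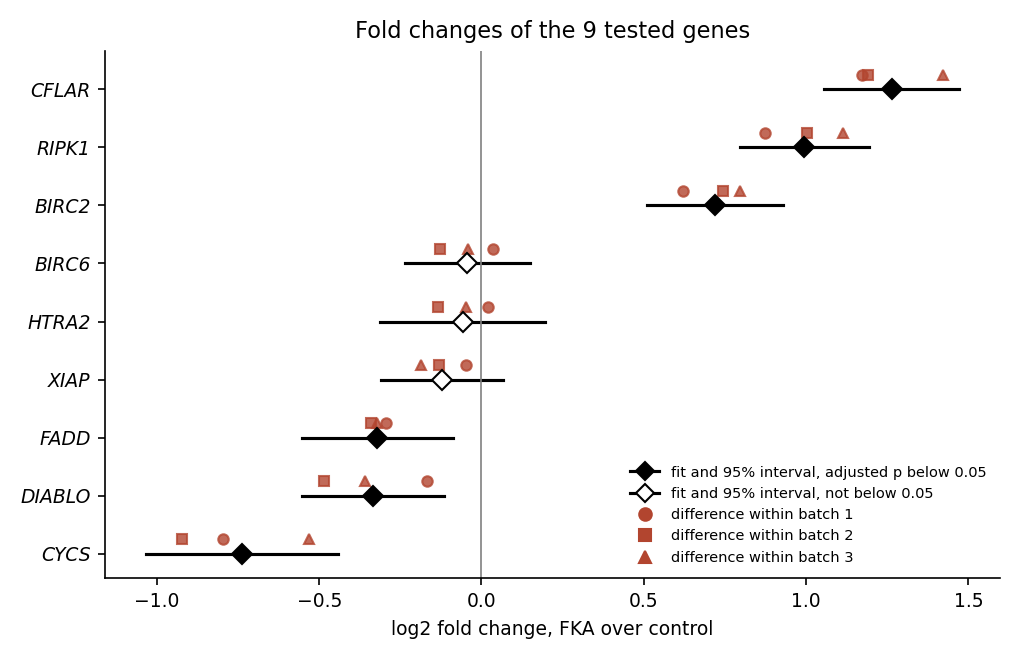
Fitted log2 fold change of FKA over control with its 95% interval for the 9 tested genes (diamonds, filled where the adjusted p is below 0.05) and the difference of log2 CPM within each batch (red symbols). The 3 batch values share 1 sign for CFLAR, RIPK1, BIRC2, XIAP, FADD, DIABLO and CYCS, and differ in sign for BIRC6 and HTRA2.

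Of the mitochondrial genes, CYCS fell clearly, DIABLO fell a little and HTRA2 was not called. CYCS, the electron carrier of respiration and trigger of the apoptosome, was at 155, 125 and 177 CPM with FKA and at 269, 236 and 256 CPM in control libraries. The highest FKA library lay below the lowest control library. The log2 fold change was -0.74 (SE 0.131, edgeR adjusted p = 0.00123), 0.600-fold with a 95% interval of 0.488 to 0.736, and the batch values were -0.80, -0.92 and -0.53. Its spread among FKA libraries was the widest of the 9 tested genes (coefficient of variation 17.4%). RefSeq lists 45 numbered CYCS pseudogenes, none of which was analysed here, and how reads shared with such copies were counted is not stated.

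DIABLO had 50.3, 41.8 and 46.8 CPM in FKA libraries against 56.4, 58.5 and 60.1 CPM in controls, without overlap. Its log2 fold change was -0.33 (SE 0.0965, edgeR adjusted p = 0.0151), with batch values of -0.17, -0.49 and -0.36. The call depended on FKA replicate 2, the lowest library: without it the log2 fold change was -0.26 (edgeR adjusted p = 0.0612). With library totals it was -0.18 (edgeR adjusted p = 0.152).

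HTRA2 was at 22.9, 24.8 and 24.5 CPM with FKA and at 22.6, 27.2 and 25.3 CPM in controls, with overlapping groups. The log2 fold change was -0.06 (95% interval -0.31 to 0.20, edgeR adjusted p = 0.675), and 0.10 with library totals. HTRA2 overlaps AUP1 and LOXL3 on the opposite strand. AUP1 was more abundant, at 87.5 ± 2.74 CPM with FKA and 133 ± 6.20 CPM in controls (SD, n = 3 each), and it fell (log2 fold change -0.60, edgeR adjusted p = 0.000249). No source used here states whether strand was used in counting, so reads of the overlapping stretches cannot be assigned with certainty.

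The 3 rises and the fall of CYCS were also called without the 2 FKA libraries that held the most fibroblast reads. With FKA replicate 1 alone against the 3 controls, and the lone library assumed to vary like the others, the log2 fold changes were 1.19 for CFLAR (edgeR adjusted p = 0.000878), 0.97 for RIPK1 (0.00293), 0.67 for BIRC2 (0.0142) and -0.72 for CYCS (0.0123). In that fit DIABLO (-0.22, edgeR adjusted p = 0.298) and FADD (-0.43, edgeR adjusted p = 0.0989) were not called. XIAP was at -0.11, HTRA2 at -0.14 and BIRC6 at 0.013 (edgeR adjusted p = 0.618, 0.606 and 0.952).

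Levels of different genes were compared on the deposited FPKM, which divide counts by gene length. In FKA libraries the order of mean FPKM was CYCS (29.6), BIRC2 (20.9), FADD (20.5), RIPK1 (17.1), CFLAR (16.6), DIABLO (14.8), BIRC6 (12.8), HTRA2 (9.84), XIAP (5.90) and BIRC3 (0.00459). Neighbours whose single libraries overlapped were BIRC2 and FADD, RIPK1 and CFLAR, and CFLAR and DIABLO. In control libraries the order was CYCS (44.2), FADD (23.0), DIABLO (16.7), BIRC6 (11.8), BIRC2 (11.4), HTRA2 (9.20), RIPK1 (7.67), CFLAR (6.20), XIAP (5.75) and BIRC3 (0.0108). Here BIRC6 and BIRC2, BIRC2 and HTRA2, HTRA2 and RIPK1, and CFLAR and XIAP overlapped. Thus BIRC2, RIPK1 and CFLAR stood at places 2, 4 and 5 with FKA and at places 5, 7 and 8 in controls.

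**Figure D3:**
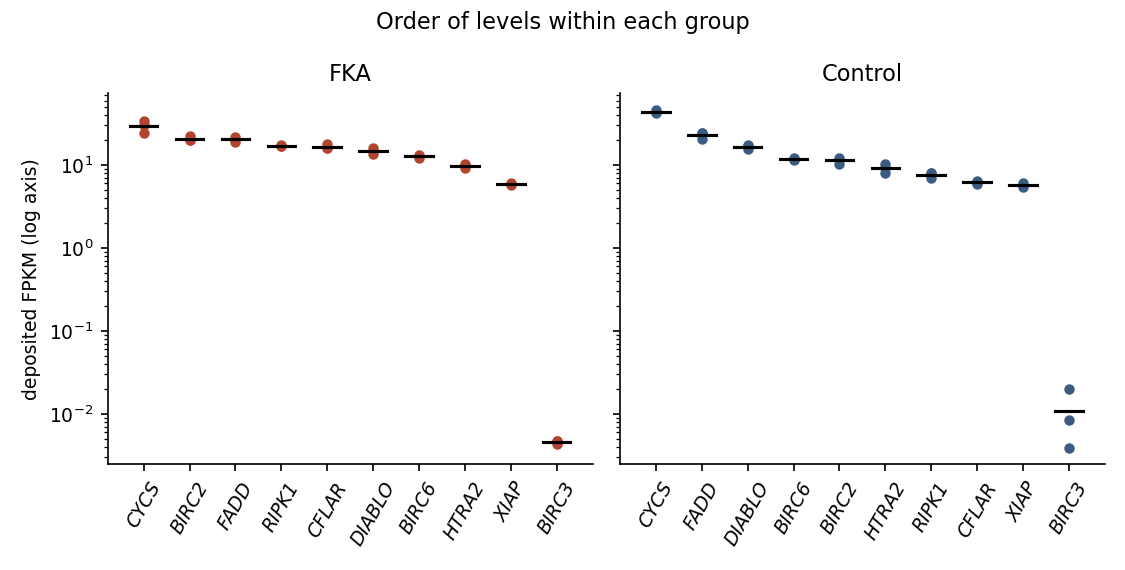
Deposited FPKM of the 10 genes on a log axis, ordered by the group mean, with FKA on the left and control on the right. Points are single libraries and bars are means, and BIRC3 lies orders of magnitude below the others in both groups.

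The gene lengths behind these FPKM matter, and not for CFLAR alone. The length implied by counts and FPKM was 22973 bases for CFLAR, while its longest coding transcript in GENCODE release 29 has 14672 bases and the median one 1214 bases. The implied length also exceeded the longest coding transcript in the other genes, except FADD (1708 against 1841 bases). Examples were RIPK1 (6046 against 4160) and DIABLO (3306 against 2257). Divided by the longest coding transcript instead, CFLAR reached 24.6 CPM per kilobase with FKA and 10.3 in controls. With FKA the order then was CYCS (37.2), CFLAR (24.6), RIPK1 (23.5) and BIRC2 (20.6), so the places of these genes depend on the length used. In controls CFLAR stayed at place 8.

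Ratios of FPKM within a library show how partners moved against each other, as descriptions without a test. CFLAR over its adaptor FADD was 0.830, 0.771 and 0.832 in FKA libraries and 0.300, 0.267 and 0.248 in control libraries, well apart. CFLAR over CASP8, the caspase it restrains, was 0.377, 0.407 and 0.508 with FKA and 0.417, 0.474 and 0.498 in controls, and these groups overlapped. CASP8 itself rose with FKA. DIABLO over BIRC2 was 0.713 ± 0.0987 with FKA and 1.48 ± 0.155 in controls (SD, n = 3 each), again apart. DIABLO over XIAP was 2.68, 2.25 and 2.60 with FKA and 2.91, 2.88 and 2.92 in controls, a small gap without overlap. CYCS over APAF1, its partner in the apoptosome, was 0.979 ± 0.171 with FKA and 2.77 ± 0.428 in controls (SD, n = 3 each).

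The genes most like CFLAR in pattern were found by the root mean square difference of log2 CPM centred over the 6 libraries, among 11402 other genes averaging 50 counts or more. They were CD63, a membrane protein of lysosomes and exosomes (0.0529), the triglyceride lipase PNPLA2 (0.0541) and the autophagy receptor SQSTM1 (0.0586). Their log2 fold changes were 1.17, 1.26 and 1.29, near the 1.26 of CFLAR. For CYCS the nearest genes were the ribosome assembly factor EMG1 (0.0357), the nucleotide synthesis enzyme PRPS1 (0.0361) and DPH6, which modifies an elongation factor (0.0424). Their log2 fold changes were -0.76, -0.72 and -0.72, near the -0.74 of CYCS. Whether any of these genes share more than a like fold change was not tested. SQSTM1 stood at 444, 462 and 477 CPM with FKA and at 198, 180 and 186 CPM in controls, and EMG1 at 31.0, 23.3 and 33.4 CPM with FKA and 53.1, 46.5 and 49.1 CPM in controls.

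The wider pathway was described with 9 lists, chosen with earlier results of these data known. Their shares of called genes are set beside that of all genes as description only. The fit without FKA replicates 2 and 3 leaves 1 FKA library and called far fewer of all genes. Its lower list counts below are therefore not a result about any list. Among 8 caspase and apoptosome genes there were 5 rises, 1 fall and 2 genes without a call, with a median log2 fold change of 0.57. Of these 8 genes 75.0% were called, beside 59.8% of all genes. CASP9, the caspase of the apoptosome, stood at 14.8 ± 2.12 CPM with FKA and 5.55 ± 0.224 CPM in controls (SD, n = 3 each; log2 fold change 1.41, edgeR adjusted p = 0.000103). CASP8, the caspase of death receptors, rose by 1.37 (edgeR adjusted p = 1.82e-05), the scaffold APAF1 by 0.75 (0.000198) and CASP10 by 0.65 (0.00254). Without FKA replicates 2 and 3 CASP10 was not called (0.0511). Named after its value was seen, CASP2 was the 1 that fell. That count was 0 with library totals, without FKA replicate 2 and without control replicate 3. It was also 0 by limma on log2(FPKM + 1), with or without a mean FPKM of at least 1, and on log2(FPKM + 0.1). The fall of CASP2 was lost as well without FKA replicates 2 and 3 together.

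Among 11 tested death receptors and ligands, 3 rose and 3 fell (median -0.12, 54.5% called, beside 59.8% of all genes). Without FKA replicates 2 and 3, 1 rose (TNFSF10) and 3 fell. The ligand TNFSF10 (TRAIL) rose to 7.83 ± 1.26 CPM with FKA, against 1.89 ± 0.771 CPM in controls (SD, n = 3 each; log2 fold change 2.05, edgeR adjusted p = 0.000482). The TRAIL receptors did not move one way. TNFRSF10A fell (-0.76, edgeR adjusted p = 0.000737). Named after their values were seen, the decoy receptor TNFRSF10D rose by 0.47 (edgeR adjusted p = 0.0323), and TNFRSF10B was at 391 ± 13.3 CPM with FKA and 330 ± 34.6 CPM in controls (SD, n = 3 each; 0.24, edgeR adjusted p = 0.0667). The death receptor TNFRSF21 fell (-2.14, edgeR adjusted p = 0.000787) at a low level. It had 0.609 ± 0.253 CPM with FKA and 2.72 ± 0.555 CPM in controls (SD, n = 3 each). FAS fell by 0.48 on the log2 scale (edgeR adjusted p = 0.0371), but was not called with the batch as a block (0.0535) or with library totals (0.136). Its call was also lost without control replicate 1 (0.0774), control replicate 2 (0.0971), FKA replicate 1 (0.124) or FKA replicate 2 (0.116).

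The TNF receptor complex and its ubiquitin chains had 23 tested genes, of which 10 rose and 5 fell. The median was 0.24, and 65.2% were called, beside 59.8% of all genes. By limma on log2(FPKM + 1), 2 fell, beside 3071 lower of 21857 genes. Without FKA replicates 2 and 3, 3 rose and 4 fell. TNFAIP3 (A20), which edits ubiquitin on RIPK1 and restrains NF-kappaB, stood at 13.0 ± 3.18 CPM with FKA and 114 ± 18.4 CPM in controls (SD, n = 3 each; log2 fold change -3.12, edgeR adjusted p = 7.48e-06). TRAF2, which brings BIRC2 to the receptor, fell (-0.88, edgeR adjusted p = 0.00097), and so did TRAF3, which links BIRC2 to the kinase MAP3K14 (-1.02, edgeR adjusted p = 0.00734; not called by limma on log2(FPKM + 1), adjusted p = 0.0516). The adaptor TRADD rose by 1.19 (edgeR adjusted p = 0.000219).

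Necroptosis genes numbered 5 with a test, 3 higher and 1 lower (median 0.28, 80.0% called, beside 59.8% of all genes). Fewer rose without FKA replicates 2 and 3, in this list and over all genes. RIPK3, the kinase partner of RIPK1, was at 33.6, 32.2 and 26.5 CPM with FKA and at 10.6, 7.82 and 8.24 CPM in controls. Its log2 fold change was 1.79 (SE 0.159, edgeR adjusted p = 3.13e-05), above that of RIPK1. MLKL, which opens the membrane, was at 0.28 (edgeR adjusted p = 0.0343), a call that was lost when any 1 library other than control replicate 1 was left out (adjusted p from 0.0746 to 0.104) or FKA replicates 2 and 3 together (0.329). The phosphatase PPM1B rose by 0.40 (edgeR adjusted p = 0.0098, and 0.0659 without FKA replicates 2 and 3) and the mitochondrial phosphatase PGAM5 fell (-1.21, edgeR adjusted p = 0.000116).

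In the NF-kappaB list 7 of 15 tested genes rose and 5 fell (median 0.32, 80.0% called, beside 59.8% of all genes). Fewer were called without FKA replicates 2 and 3, in this list and over all genes. The largest changes were falls: the chemokine CCL5 (-3.51, edgeR adjusted p = 7.89e-06), TNFAIP3, the surface protein CD83 (-1.96, edgeR adjusted p = 8.53e-05) and BCL2A1 (-1.90, edgeR adjusted p = 0.0389). BCL2A1 rested on few reads, with at most 0.81 CPM in a library, and its call was lost without control replicate 1 (0.071), control replicate 2 (0.0874), control replicate 3 (0.0707), FKA replicate 1 (0.0902) or FKA replicates 2 and 3 together (0.0935). Named after their values were seen, the inhibitor NFKBIA rose by 1.21 (edgeR adjusted p = 8.52e-05) and MAP3K14, the kinase of the noncanonical branch, by 1.29 (0.000378).

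The IAP partners and regulators split evenly, with 3 of 9 tested genes higher and 3 lower (median 0.11, 66.7% called, beside 59.8% of all genes). The count of rises was 1 without control replicate 3, without FKA replicate 1, or without FKA replicates 2 and 3. XAF1, a XIAP-binding protein, fell (-1.69, edgeR adjusted p = 0.00011), as did the translation factor GSPT1, a processed form of which binds IAPs (-0.79, edgeR adjusted p = 0.000556), and the ubiquitin ligase SIAH1 (-0.65, edgeR adjusted p = 0.00334; 0.0838 without FKA replicates 2 and 3, and 0.0902 by limma on log2(FPKM + 1)). CCS, a copper chaperone that XIAP ubiquitinates, rose by 1.31 (edgeR adjusted p = 0.0002).

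Mitochondrial release and protein processing was described by 17 genes, of which 11 fell and 0 rose by edgeR (median -0.33). The share called was 64.7%, beside 59.8% of all genes, of which 30.5% were lower. At an unadjusted p under 0.05, 12 were lower and 0 higher by edgeR and by DESeq2. With library totals 5 fell, beside 3282 lower of all 13531 tested genes. Without FKA replicates 2 and 3, fewer fell in this list and over all genes. By limma on log2(FPKM + 1), 5 fell and 1 rose, beside 3071 lower and 4926 higher of 21857 genes. IMMP2L, a subunit of the inner membrane peptidase family that trims intermembrane space proteins, changed by -2.04 (edgeR adjusted p = 0.000534) from a low level of 4.38 ± 0.488 CPM in controls. The import receptor CHCHD4 (-1.16, edgeR adjusted p = 0.000156), HAX1, which interacts with HTRA2 (-0.86, 0.000112), and the outer membrane channel VDAC1 (-0.67, 0.00181) fell too.

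Respiratory partners of cytochrome c numbered 19, of which 3 rose and 4 fell (median 0.02), so that 36.8% were called beside 59.8% of all genes. With library totals 8 rose and 3 fell, beside 4993 higher and 3282 lower of all 13531 tested genes. CYC1, COX5A, UQCRQ and COX6C, described below, were not called without FKA replicates 2 and 3, where fewer of all genes were called too. By limma on log2(FPKM + 1), 9 rose and 2 fell, beside 4926 higher and 3071 lower of 21857 genes. CYC1, the complex III subunit that hands electrons to CYCS, fell (-0.49, edgeR adjusted p = 0.00197), as did COX5A of the oxidase (-0.46, 0.00681), while UQCRQ rose by 0.57 (0.00164) and COX6C by 0.41 (0.00829). The log2 fold change of CYCS (-0.74) lay below those of all 19 genes, and this difference was not tested.

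**Figure D4:**
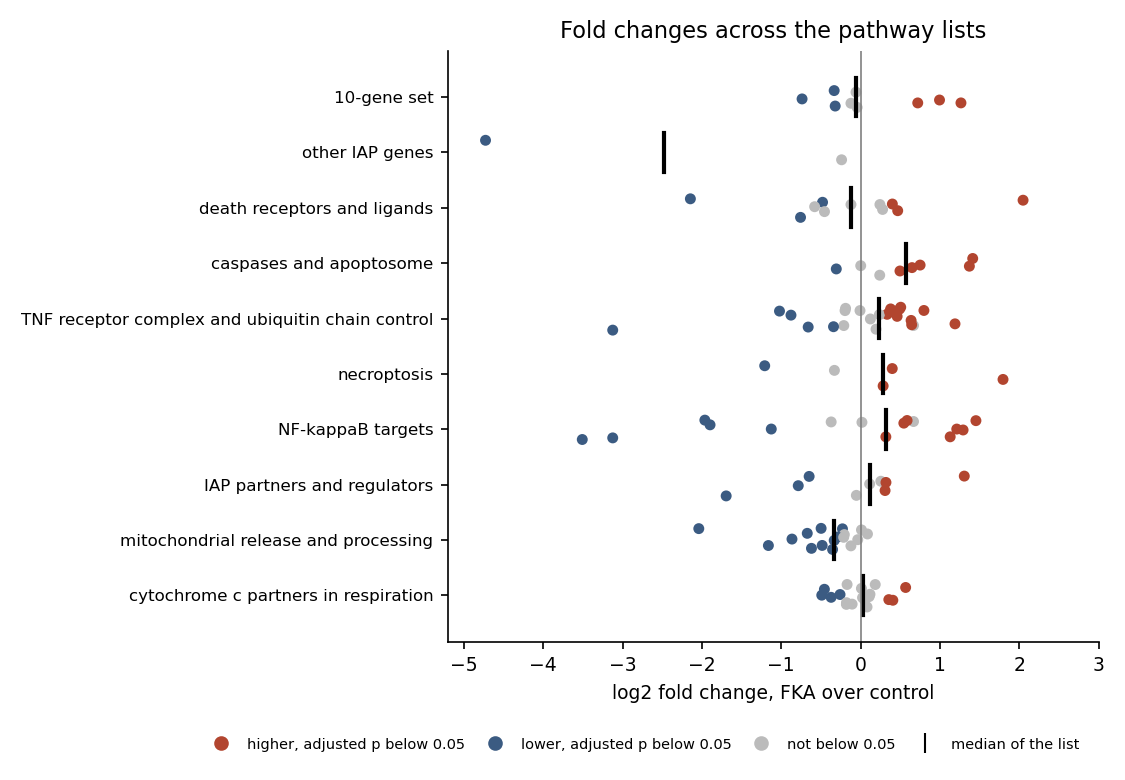
Log2 fold change of FKA over control for each tested gene of the 10-gene set and of 9 pathway lists, red where higher and blue where lower with an adjusted p below 0.05, grey otherwise, with the list median as a black bar. Genes of the death receptor, TNF receptor and NF-kappaB lists lie on both sides of 0, and BIRC5 (-4.73) is the lowest point.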

How the data were processed

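Raw counts per gene (whole numbers) and FPKM were deposited by the authors in 2 tables. Deposited FPKM equalled the count divided by the column total and 1 length per gene (largest relative deviation 6.9e-07). For aligner, counter, annotation and strand: not given in the sources used here. Mouse builds (GRCm38, mm10) stand in the submitters' processing notes, while 94.5% of the 21857 symbols matched the human RefSeq table, so the build of the counts is unknown and coordinates are RefSeq's own. The count analysis used edgeR 4.0.16 in R 4.3.3: filterByExpr (13531 genes, at least 99.94% of counts), TMM, and the quasi-likelihood test, adjusted by Benjamini-Hochberg. No 2 replicates were copies (chi-square over degrees of freedom 21.7 to 66.3). The labels' batch field equals the replicate number, and the pairing comes from that field. Correlations of deviations within batches 1 to 3 were 0.0537, 0.345 and -0.0768.

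The genes and lists were chosen with earlier results of these data known. Named were all 10 genes, up to 4 called genes with the largest change per list, and the 3 genes most like the strongest rise and fall. Other settings were DESeq2 1.42.0, the batch as a block, RLE, upper-quartile or no scaling factors, other filters, limma 3.58.1 on log2(FPKM + 1) and log2(FPKM + 0.1), and leaving out libraries.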

Additional observations from a re-analysis of the deposited data

How the results depend on the processing

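Under 17 alternatives, CFLAR (1.19 to 1.42), RIPK1 (0.93 to 1.15), BIRC2 (0.65 to 0.88) and CYCS (-0.86 to -0.58) kept direction and call in all 17. The batch as a replicate block changed no call among the 10 genes, with log2 fold changes of 1.26 for CFLAR and -0.34 for DIABLO. It changed the call of FAS among the other named genes. DIABLO passed in 11 and FADD in 7 of the 17. Genes lower among the 10 numbered 3, but 1 with library totals, with limma on FPKM at each pseudocount and filter, and without FKA replicates 2 and 3. Leaving out 1 library gave 1 to 3 lower and 3 higher.

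With library totals the log2 fold changes of XIAP, BIRC6, HTRA2, DIABLO and FADD were 0.036, 0.11, 0.10, -0.18 and -0.16. On log2(FPKM + 1), with or without a mean FPKM of at least 1, they were 0.032, 0.10, 0.094, -0.17 and -0.15, and on log2(FPKM + 0.1) 0.037, 0.11, 0.10, -0.18 and -0.16. With upper-quartile factors BIRC6 was at 0.024, HTRA2 at 0.011 and FADD at -0.25. Without FKA replicates 2 and 3, BIRC6 was at 0.013, DIABLO at -0.22 and FADD at -0.43, and 2020 genes were higher and 2599 lower, against 3959 and 4131 with all libraries. That fit has fewer samples. Leaving out 1 library moved DIABLO between -0.40 and -0.26, FADD between -0.39 and -0.28 and BIRC6 between -0.081 and 0.0034, above 0 without FKA replicate 2. For library totals, whose scaling the FPKM carry, the shift of the median gene by 0.16 is the construction of the alternative. For upper-quartile factors that shift is not given here, and for the others the cause was not tested. Library totals turned the split of calls over all genes to 4993 higher and 3282 lower. BIRC3, with 1 to 5 counts a library, is the 1 gene limited by depth.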
